A study of Mus musculus with 9 samples.

Results

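A panel of 42 genes whose products fold, translocate, glycosylate or degrade proteins in the endoplasmic reticulum (ER), or sense stress there, was followed through the lungs of smoke-exposed and decoction-treated mice. The genes were picked by symbol, and 43 of the 56263 entries in the expression table carried 1 of the 42 names. All 42 genes passed the filter on low values, which kept 16080 genes in all. The lungs came from male wild-type BALB/c mice, an inbred laboratory strain, bought at 6 to 8 weeks of age, and each of 3 groups gave 3 RNA libraries (C1 to C3, M1 to M3 and Q1 to Q3). Control mice were not exposed. Model mice were kept in smoke from 6 burning cigarettes, in 3 daily rounds of 30 min, over an experiment that lasted 42 days, and received 20 µg of lipopolysaccharide (LPS), a bacterial endotoxin, into the trachea on days 1 and 14. QJHTD mice had the same exposures and were also given Qing-Jin-Hua-Tan decoction, a herbal medicine, at the highest of the study's 3 doses. Such exposed mice stand for chronic obstructive pulmonary disease (COPD), with a short exposure and whole lungs as its limits as a model. The labels do not say whether each library is a separate animal, so p-values measure the spread between these libraries.

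Secreted and membrane proteins enter the ER through the Sec61 channel, lose their signal peptide, receive sugar chains and fold with the help of chaperones and disulfide isomerases, and those that fail are returned to the cytosol and destroyed. When unfolded proteins accumulate, the sensors Ern1 (IRE1α), Atf6 and Eif2ak3 (PERK) start the unfolded protein response, in which Xbp1 and Atf6 raise folding and degradation genes while the Eif2ak3 arm slows translation and acts through Atf4 and Ddit3 (CHOP). Plasma cells, which secrete antibody, are known for a very large ER, and alveolar type 2 and club cells are the main secretory cells of the resting lung.

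More of the ER genes were higher than lower after smoke and LPS. Of the 42 genes, 25 were higher in the model than in the control group, 4 were lower (Canx, Ssr1, Atf4 and Ddit3) and 13 did not pass the test, and 9 rose at least 2-fold. Among all genes tested, 16.6% were higher and 56.5% lower. The median log2 fold change was 0.38 over the 42 genes and -0.47 over all genes tested. The rises were very unequal within each step of the pathway: 1 member of a complex or enzyme family often rose several-fold while its partners moved far less. No gene of the 42 passed the test between the QJHTD and model groups, where only 0.0124% of all genes tested did. Values are TPM, the share of a library's transcripts that a gene holds after correction for its length. Tests were run with limma on log2(TPM + 1) at an adjusted p under 0.05, each error after a log2 fold change is its standard error, and folds of low genes are understated on this scale. In whole lung, fewer cells of a type and less RNA per cell cannot be told apart.

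**Figure D1:**
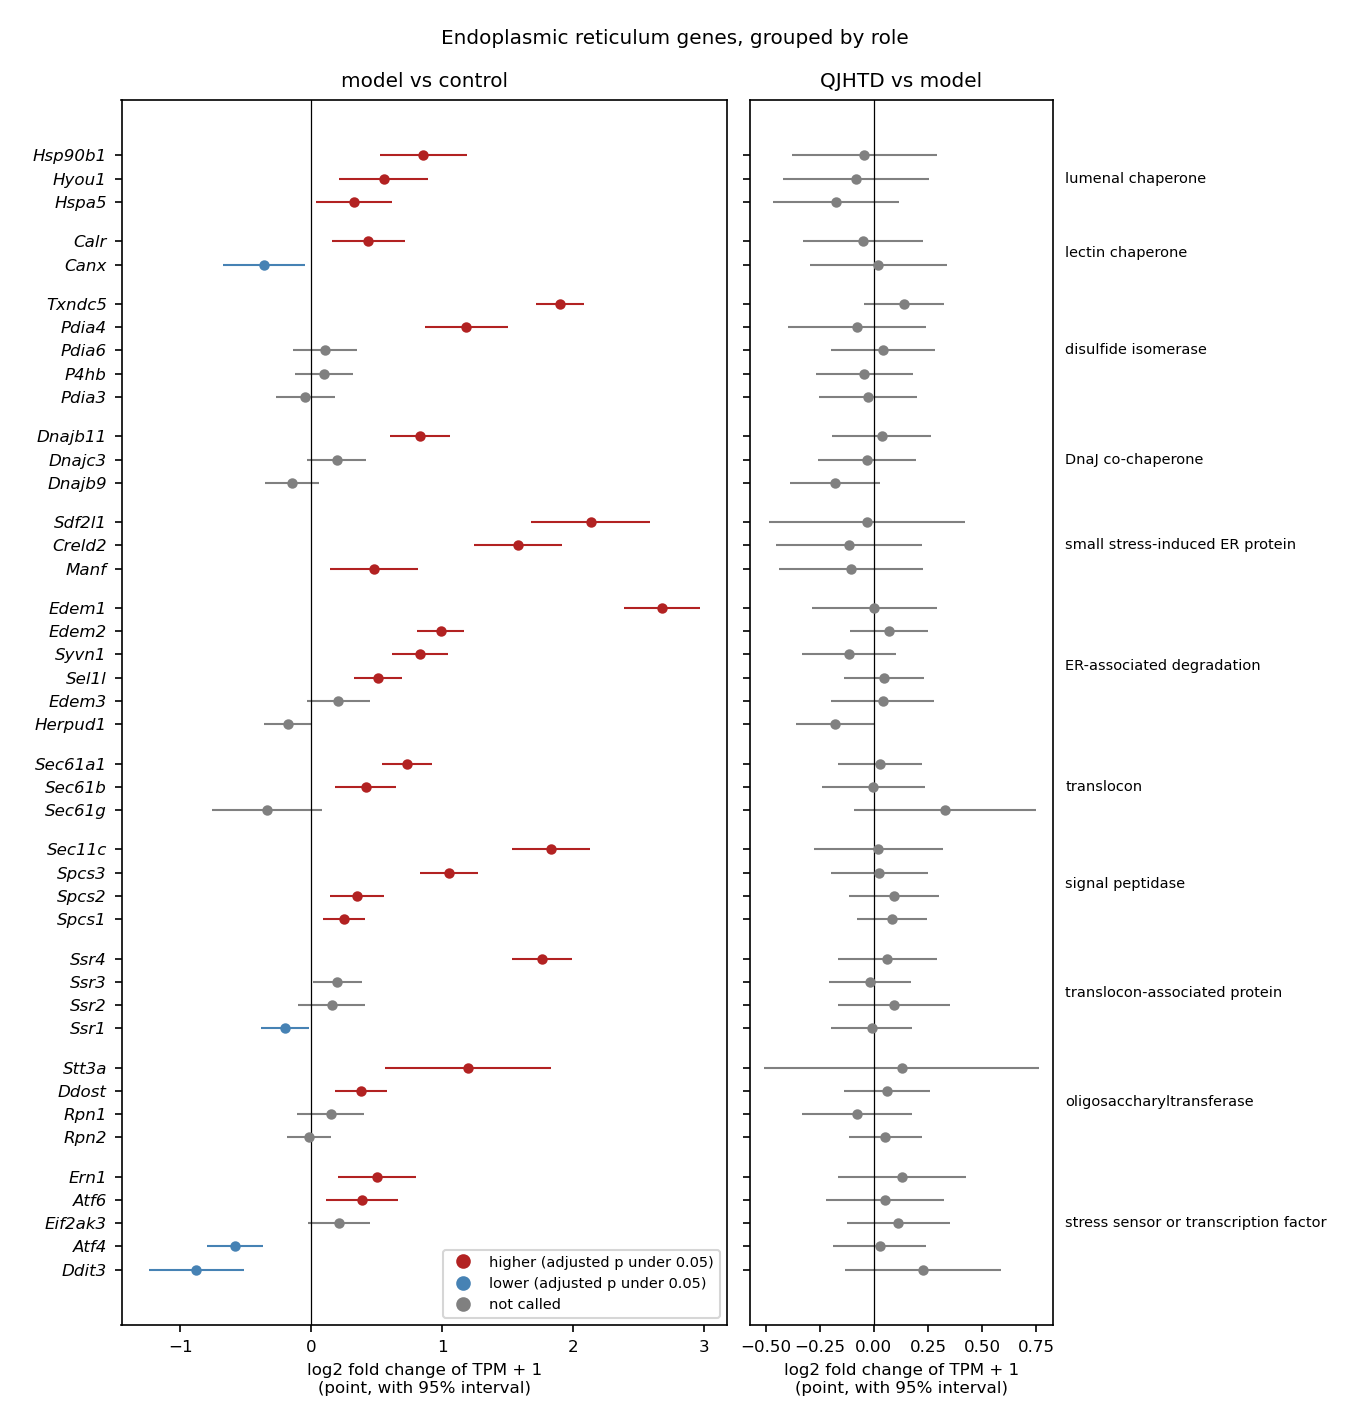
Log2 fold change of TPM + 1 (horizontal axis) with its 95% interval for each of the 42 genes, grouped by role, in the model group over control (left) and in the QJHTD group over model (right). On the left 25 genes are higher, 4 lower and 13 not called at an adjusted p under 0.05, with Edem1 farthest to the right, and on the right no gene is called.

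The promoters of the genes were read for known elements of the unfolded protein response. The genes were picked partly for their role in this response, so an excess of its elements is not independent of that choice. A promoter (250 bases before to 50 after the gene's start, RefSeq, GRCm38.p6) was held for 35 of the 42 genes. The ER stress element, read by Atf6 and Xbp1 together with the factor NF-Y and spelled here as CCAAT followed after 9 bases by CCACG on either strand, occurred in 8 of the 35 (Hspa5, Hsp90b1, Calr, Canx, Pdia6, Dnajc3, Creld2 and Syvn1), against 0.119% of 32851 mouse promoters. Its second form, ATTGG followed after 1 base by CCACG, occurred in 2 of the 35 (Dnajb11 and Herpud1), against 0.0365% of all. The core of the UPR element, TGACGTGG, occurred in 1 of the 35 (Txndc5), against 0.676% of all. The lines that follow show the match in capitals with 20 bases on each side, 5′ to 3′ on the strand of the gene. They cover some of the genes with a match: a gene that fell (Canx), genes that rose (Hsp90b1, Calr and Creld2) and genes that did not pass (Dnajc3 and Herpud1). The windows lie at chr10:86705513-86705676 (minus strand), chr8:84847055-84847113 (minus strand), chr11:50325780-50325838 (minus strand), chr14:118937807-118937865 (plus strand), chr15:88819500-88819558 (plus strand) and chr8:94386357-94386407 (plus strand).
Hsp90b1: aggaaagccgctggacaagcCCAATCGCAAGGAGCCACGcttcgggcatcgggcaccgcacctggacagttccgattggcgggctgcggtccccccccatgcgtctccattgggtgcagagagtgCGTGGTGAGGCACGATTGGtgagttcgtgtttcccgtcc
Calr: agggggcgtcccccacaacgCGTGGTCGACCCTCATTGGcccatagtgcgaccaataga
Canx: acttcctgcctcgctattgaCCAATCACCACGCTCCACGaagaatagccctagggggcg
Dnajc3: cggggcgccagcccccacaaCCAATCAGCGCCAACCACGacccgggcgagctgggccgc
Creld2: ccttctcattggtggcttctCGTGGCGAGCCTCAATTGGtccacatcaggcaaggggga
Herpud1: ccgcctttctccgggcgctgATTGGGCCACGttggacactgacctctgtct
In Hsp90b1 both matches are in capitals, the second on the opposite strand, and in Calr and Creld2 the match is on the opposite strand, so that it reads CGTGG first. Herpud1 shows the second form. The match of Dnajb11 begins 8 bases after the start of the gene, within the transcript, and is not shown. Those of Hspa5, Pdia6, Txndc5 and Syvn1 are not shown either. Of the 11 genes with any of the 3 matches, 7 were higher in the model group, 1 was lower and 3 did not pass, and their median log2 fold change was 0.44. Of the 24 genes with a promoter and no match, 12 were higher, 3 lower and 9 did not pass, with a median of 0.23. Those with no match included Edem1, Sdf2l1 and Ssr4, which are among the 5 largest rises. A match describes letters in this window and was not measured as a binding site.

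The lumenal chaperones were all higher in the model group. Hsp90b1 (GRP94), which folds a selected set of secreted and surface proteins, stood at 372, 464 and 374 TPM in the control libraries, 711, 724 and 747 TPM in the model libraries and 683, 598 and 856 TPM in the QJHTD libraries. Every model library lay above every control library (log2 fold change 0.86 ± 0.15, adjusted p = 0.000741), and the QJHTD values spread around the model values. In all, 7 of the 42 genes share at least 200 exon bases with another annotated gene. Hsp90b1 is among them (415 bases with 1810014B01Rik on the other strand). The others are Txndc5, Sec61a1, Eif2ak3 (485 bases), Spcs1 (252), Rpn2 (242) and Ssr2 (239), all on the other strand. Hyou1, the exchange factor that resets the nucleotide of Hspa5, stood at 32.4, 44.7 and 33.3 TPM in the control libraries, 58.0, 56.4 and 47.8 TPM in the model libraries and 50.8, 44.3 and 58.3 TPM in the QJHTD libraries. Its model libraries also lay above the controls (log2 fold change 0.55 ± 0.15, adjusted p = 0.00843), by a narrow gap to C2. Hspa5 (BiP), the central chaperone and the textbook readout of ER stress, stood at 282, 359 and 307 TPM in the control libraries, 401, 411 and 371 TPM in the model libraries and 326, 319.9 and 409 TPM in the QJHTD libraries, which makes it 1 of the most abundant of the 42 transcripts with a small shift. Its rise was just past the threshold (log2 fold change 0.33 ± 0.13, adjusted p = 0.0449) and did not pass without C1 (adjusted p = 0.153), C3 (0.104), M1 (0.103), M2 (0.115), M3 (0.0512) or Q2 (0.0506). With quantile normalization its log2 fold change was 0.00 (adjusted p = 0.999).

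The lectin chaperones, which hold newly glycosylated proteins, parted. Calr, the soluble one, stood at 339, 397 and 357 TPM in the control libraries, 503, 492 and 483 TPM in the model libraries and 430.4, 442 and 567 TPM in the QJHTD libraries. All model values were above the control values (log2 fold change 0.44 ± 0.12, adjusted p = 0.0101), but not with quantile normalization (adjusted p = 0.435). Canx, the membrane-bound one, stood at 143, 202 and 142 TPM in the control libraries, 125, 123 and 125 TPM in the model libraries and 118, 121 and 141 TPM in the QJHTD libraries. Here the model libraries were the lower ones (log2 fold change -0.36 ± 0.14, adjusted p = 0.0412), with C2 far above the other controls, and without C2 the log2 fold change was -0.20 (adjusted p = 0.114). The call was also lost without M1 (adjusted p = 0.0817), M2 (0.0929), M3 (0.0763) or Q2 (0.0541). The ratio of Calr to Canx within a library, which does not depend on how libraries are scaled, was 2.28 ± 0.282 in the control, 3.96 ± 0.0888 in the model and 3.77 ± 0.205 in the QJHTD libraries (mean ± SD, 3 libraries each).

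Of 5 disulfide isomerases, 2 rose and 3 did not pass as deposited. Txndc5 (ERp46), which passes disulfides to client proteins, stood at 74.9, 69.4 and 72.6 TPM in the control libraries, 265, 291 and 264 TPM in the model libraries and 317, 285 and 301 TPM in the QJHTD libraries. The exposed groups were above control without overlap and by more than 3-fold (log2 fold change 1.90 ± 0.08, adjusted p = 3.04e-07). Pdia4 (ERp72) stood at 61.2, 72.8 and 61.1 TPM in the control libraries, 151, 154 and 141 TPM in the model libraries and 136, 118 and 174 TPM in the QJHTD libraries. Its model and control values were again far apart (log2 fold change 1.19 ± 0.14, adjusted p = 8.48e-05). The more abundant Pdia3 and P4hb had log2 fold changes of -0.04 ± 0.10 (adjusted p = 0.706) and 0.10 ± 0.10 (adjusted p = 0.388). Pdia6, also more abundant, was at 0.11 ± 0.11 (adjusted p = 0.390). These 3 were called higher with median-ratio rescaling (0.50, 0.64 and 0.65) and recomputed TPM (0.60, 0.74 and 0.75), scalings described further on. Pdia3 was called lower with quantile normalization (-0.28, adjusted p = 0.0182). Txndc5 shares 311 exon bases with Gm31834 and 224 with Bmp6 on the other strand, and since no source used here says whether strand was used in counting, reads in these stretches cannot be assigned with certainty.

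Among the DnaJ co-chaperones of Hspa5, Dnajb11 (ERdj3), which hands it unfolded chains, stood at 61.1, 59.5 and 56.9 TPM in the control libraries, 107, 105 and 107 TPM in the model libraries and 108, 95.3 and 126 TPM in the QJHTD libraries. The model libraries lay close together and above all controls (log2 fold change 0.83 ± 0.10, adjusted p = 0.000101). Dnajc3 (p58IPK), a co-chaperone that also restrains Eif2ak3, stood at 35.3, 44.0 and 36.2 TPM in the control libraries, 45.7, 43.6 and 42.8 TPM in the model libraries and 43.3, 40.1 and 45.7 TPM in the QJHTD libraries. The groups overlapped through C2 (log2 fold change 0.20 ± 0.10, adjusted p = 0.104), and without C2 the difference passed (log2 fold change 0.29, adjusted p = 0.0190). It also passed with median-ratio rescaling (0.73), quantile normalization (0.50) and recomputed TPM (0.83). Dnajb9 (ERdj4), a known target of Xbp1 that holds Ern1 inactive, stood at 42.6, 47.5 and 44.5 TPM in the control libraries, 40.0, 41.2 and 39.8 TPM in the model libraries and 37.7, 31.4 and 37.8 TPM in the QJHTD libraries. It went the other way as deposited, with all model values under the controls, and did not pass (log2 fold change -0.15 ± 0.09, adjusted p = 0.166). Dnajb9 was called higher with median-ratio rescaling (0.39, adjusted p = 0.0264) and recomputed TPM (0.49, adjusted p = 0.00453).

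All 3 small proteins of the ER stress response rose. Sdf2l1, which keeps misfolded proteins from clumping together with Dnajb11, stood at 18.1, 28.3 and 24.0 TPM in the control libraries, 109, 125 and 85.0 TPM in the model libraries and 96.3, 89.8 and 125 TPM in the QJHTD libraries. No exposed library came near the controls (log2 fold change 2.14 ± 0.20, adjusted p = 2.11e-05), and M3 was the lowest of the model group. Creld2, an ER protein induced by stress, stood at 64.6, 80.4 and 70.1 TPM in the control libraries, 208, 231 and 208 TPM in the model libraries and 203, 161 and 242 TPM in the QJHTD libraries. Model values were about 3 times those of control (log2 fold change 1.58 ± 0.15, adjusted p = 2.18e-05). Manf, a secreted factor that binds Hspa5, rose less (log2 fold change 0.48 ± 0.15, adjusted p = 0.0154), and the call was lost without C1 (adjusted p = 0.0599), without M2 and Q1 together (0.0571) and with quantile normalization (0.312). Relative to Hspa5 in the same library, Sdf2l1 stood at 0.0738 ± 0.00834 in the control, 0.268 ± 0.0381 in the model and 0.294 ± 0.0131 in the QJHTD libraries.

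The genes of ER-associated degradation held the largest rise of the panel. Edem1, which directs misfolded glycoproteins to degradation, stood at 16.8, 19.3 and 14.7 TPM in the control libraries, 109, 112 and 120.2 TPM in the model libraries and 127, 96.5 and 120.2 TPM in the QJHTD libraries. The exposed libraries were above control by a wide gap (log2 fold change 2.68 ± 0.13, adjusted p = 4.91e-07, a fold of 6.41 on the TPM + 1 scale). Edem2, which trims the first mannose, stood at 46.5, 39.8 and 41.1 TPM in the control libraries, 84.8, 83.8 and 87.0 TPM in the model libraries and 89.3, 86.6 and 92.6 TPM in the QJHTD libraries. Its groups did not overlap either (log2 fold change 0.99 ± 0.08, adjusted p = 9.00e-06). Edem3, the third of the family, did not pass as deposited (log2 fold change 0.21 ± 0.11, adjusted p = 0.103), but did without C2 (adjusted p = 0.0462) and under all 3 other scalings, and the ratio of Edem1 to Edem3 within a library was 1.42 ± 0.0484 in the control, 8.18 ± 0.614 in the model and 7.99 ± 1.02 in the QJHTD libraries. The ubiquitin ligase Syvn1 (HRD1) and its partner Sel1l rose by 0.83 ± 0.10 (adjusted p = 6.94e-05) and 0.51 ± 0.08 (adjusted p = 0.000496) on the log2 scale. Herpud1, which helps to assemble this ligase and is a known target of the unfolded protein response, stood at 125, 141 and 131 TPM in the control libraries, 115, 112 and 123 TPM in the model libraries and 106, 104 and 99.2 TPM in the QJHTD libraries. As deposited, model values were below the controls and QJHTD values lower still. Neither step passed the test (model over control log2 fold change -0.18 ± 0.08, adjusted p = 0.0686). Model over control was called higher with median-ratio rescaling (0.36, adjusted p = 0.0129) and recomputed TPM (0.46, adjusted p = 0.00157).

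Of the 3 subunits of the translocon, Sec61a1, which forms the channel, stood at 49.5, 52.8 and 47.3 TPM in the control libraries, 84.5, 90.2 and 76.1 TPM in the model libraries and 86.5, 82.1 and 86.8 TPM in the QJHTD libraries. The groups stood apart (log2 fold change 0.73 ± 0.09, adjusted p = 7.75e-05), with 549 of its exon bases shared with Gm44170 on the other strand. Sec61b stood at 242, 232 and 227 TPM in the control libraries, 316, 311 and 309 TPM in the model libraries and 299.9, 278 and 361 TPM in the QJHTD libraries. Its rise was smaller, again with no overlap (log2 fold change 0.42 ± 0.10, adjusted p = 0.00581), and was lost with quantile normalization (adjusted p = 0.121). Sec61g stood at 25.2, 17.3 and 17.5 TPM in the control libraries, 16.2, 17.3 and 12.9 TPM in the model libraries and 15.6, 21.7 and 22.0 TPM in the QJHTD libraries. C1 was high among the controls, all model values were below the controls, M2 by very little, and the difference did not pass (log2 fold change -0.34 ± 0.19, adjusted p = 0.125).

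All 4 genes of signal peptidase, which removes signal peptides, were higher, by very different amounts. Sec11c, 1 of 2 alternative catalytic subunits, stood at 74.6, 57.1 and 79.3 TPM in the control libraries, 244, 249.9 and 259.8 TPM in the model libraries and 275, 226 and 266 TPM in the QJHTD libraries. Exposed and control libraries were far apart (log2 fold change 1.83 ± 0.13, adjusted p = 4.63e-06). Spcs3, needed for catalysis, stood at 30.8, 26.1 and 26.8 TPM in the control libraries, 57.3, 57.7 and 61.6 TPM in the model libraries and 64.6, 53.4 and 62.2 TPM in the QJHTD libraries. It rose about 2-fold without overlap (log2 fold change 1.05 ± 0.10, adjusted p = 2.10e-05), while Spcs1 and Spcs2 rose by 0.25 ± 0.07 (adjusted p = 0.0110) and 0.35 ± 0.09 (adjusted p = 0.00736), the first not with quantile normalization (adjusted p = 0.464). The other catalytic subunit, Sec11a, which is not among the 42, stood at 72.4, 60.4 and 56.7 TPM in the control libraries, 40.5, 41.3 and 42.3 TPM in the model libraries and 42.4, 40.6 and 44.7 TPM in the QJHTD libraries. It was lower in the model group as deposited (log2 fold change -0.59 ± 0.10, adjusted p = 0.000615), with log2 fold changes of -0.05 and 0.04 under the median-ratio and recomputed scalings described further on. The ratio of Sec11c to Sec11a was 1.03, 0.946 and 1.40 in the control libraries, 6.02, 6.05 and 6.14 in the model libraries and 6.49, 5.56 and 5.94 in the QJHTD libraries. The catalytic pair thus went from near parity to a large excess of Sec11c in every exposed library.

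In the translocon-associated protein complex 1 of 4 subunits rose as deposited. Ssr4, its delta subunit, stood at 88.8, 80.1 and 89.3 TPM in the control libraries, 283, 321 and 279 TPM in the model libraries and 330.0, 276 and 318 TPM in the QJHTD libraries. All exposed libraries exceeded the controls by about 3-fold (log2 fold change 1.76 ± 0.10, adjusted p = 1.32e-06). Ssr1, the alpha subunit, stood at 40.1, 35.1 and 35.2 TPM in the control libraries, 32.2, 30.6 and 32.6 TPM in the model libraries and 31.4, 30.3 and 33.0 TPM in the QJHTD libraries. Its decline was at the threshold (log2 fold change -0.20 ± 0.08, adjusted p = 0.0499), did not pass when any 1 of the 9 libraries was left out (adjusted p from 0.0535 to 0.160), and turned into a rise of 0.12 with quantile normalization. Ssr2 and Ssr3 did not pass, at 0.16 ± 0.11 (adjusted p = 0.240) and 0.20 ± 0.08 (adjusted p = 0.0553). Ssr3 was higher without C1 (adjusted p = 0.0424) or Q3 (0.0491). It was also called higher with median-ratio rescaling (0.74), quantile normalization (0.28, adjusted p = 0.0118) and recomputed TPM (0.84). Ssr2 was called higher with median-ratio rescaling (0.70, adjusted p = 0.00141) and recomputed TPM (0.80, adjusted p = 0.00036). Within a library the ratio of Ssr4 to Ssr1, partners in 1 complex, was 2.22, 2.28 and 2.53 in the control libraries, 8.79, 10.5 and 8.55 in the model libraries and 10.5, 9.09 and 9.63 in the QJHTD libraries. The lowest exposed ratio was more than 3 times the highest control ratio.

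Of the oligosaccharyltransferase, which attaches sugar chains, 2 of 4 subunits were higher as deposited. Stt3a, the catalytic subunit that works beside the channel, stood at 24.3, 23.4 and 22.1 TPM in the control libraries, 70.8, 70.2 and 32.8 TPM in the model libraries and 73.2, 62.7 and 46.7 TPM in the QJHTD libraries. It rose (log2 fold change 1.20 ± 0.28, adjusted p = 0.00408), yet M3 and Q3 were well below the other exposed libraries, and its error was the largest of the panel. Ddost, a structural subunit, stood at 70.0, 72.5 and 68.1 TPM in the control libraries, 95.1, 90.7 and 88.8 TPM in the model libraries and 88.5, 92.0 and 107 TPM in the QJHTD libraries. Its values were tighter and the groups did not overlap (log2 fold change 0.38 ± 0.09, adjusted p = 0.00389). Rpn1 and Rpn2 did not pass, at 0.15 ± 0.11 (adjusted p = 0.253) and -0.02 ± 0.07 (adjusted p = 0.854). Both were called higher with median-ratio rescaling (0.69 and 0.53) and with recomputed TPM (0.79 and 0.63). Stt3b, the catalytic subunit of the second form of the enzyme and not among the 42, stood at 35.3, 34.8 and 31.4 TPM in the control libraries, 31.6, 28.1 and 31.0 TPM in the model libraries and 29.3, 29.9 and 31.8 TPM in the QJHTD libraries. It did not pass as deposited (log2 fold change -0.16 ± 0.08, adjusted p = 0.119), but was higher with median-ratio rescaling (log2 fold change 0.37, adjusted p = 0.00126) and with recomputed TPM (0.47, adjusted p = 0.000451). The ratio of Stt3a to Stt3b was 0.688, 0.673 and 0.705 in the control libraries, 2.24, 2.50 and 1.06 in the model libraries and 2.50, 2.10 and 1.47 in the QJHTD libraries. M3 had the lowest exposed ratio, still above all controls.

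The sensors and the factors of the PERK arm moved apart. Ern1 stood at 6.26, 7.29 and 5.08 TPM in the control libraries, 9.55, 9.44 and 8.48 TPM in the model libraries and 10.3, 11.0 and 9.10 TPM in the QJHTD libraries, all model values above the controls (log2 fold change 0.50 ± 0.13, adjusted p = 0.00696). Atf6 stood at 9.89, 12.4 and 8.69 TPM in the control libraries, 14.6, 13.0 and 13.5 TPM in the model libraries and 14.4, 14.3 and 13.8 TPM in the QJHTD libraries, also higher without overlap (log2 fold change 0.39 ± 0.12, adjusted p = 0.0169), though not when C3 (adjusted p = 0.0564) or M1 (0.0578) was left out. Eif2ak3 stood at 10.2, 10.1 and 8.78 TPM in the control libraries, 12.1, 12.1 and 9.98 TPM in the model libraries and 12.9, 11.9 and 12.2 TPM in the QJHTD libraries, with M3 among the controls (log2 fold change 0.21 ± 0.10, adjusted p = 0.0952), and the difference passed without M3 (adjusted p = 0.0332) and under all 3 other scalings. By group mean, these sensors were the 3 lowest transcripts of the panel. Atf4, the factor whose translation rises when Eif2ak3 is active, stood at 158, 151 and 146 TPM in the control libraries, 98.0, 93.7 and 112 TPM in the model libraries and 97.0, 101 and 112 TPM in the QJHTD libraries. Every model value was below every control value (log2 fold change -0.58 ± 0.09, adjusted p = 0.000545). Ddit3 (CHOP), its target and a promoter of cell death, stood at 42.2, 54.1 and 42.2 TPM in the control libraries, 24.1, 24.7 and 24.7 TPM in the model libraries and 22.9, 36.0 and 29.0 TPM in the QJHTD libraries. Model libraries were at about 0.544 of the control level on the TPM + 1 scale (log2 fold change -0.88 ± 0.16, adjusted p = 0.00102), and C2 and Q2 were the highest of their groups. Both falls passed with each library left out in turn, but not under 2 of the 3 other scalings that follow. A second entry named Ddit3, of 105 bases that all lie in exons of the first, failed the filter and was listed at 0 TPM in 7 of 9 libraries. Ratios of Hspa5 to Ddit3 were 6.87 ± 0.351 in the control, 16.1 ± 0.953 in the model and 12.4 ± 3.07 in the QJHTD libraries.

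**Figure D2:**
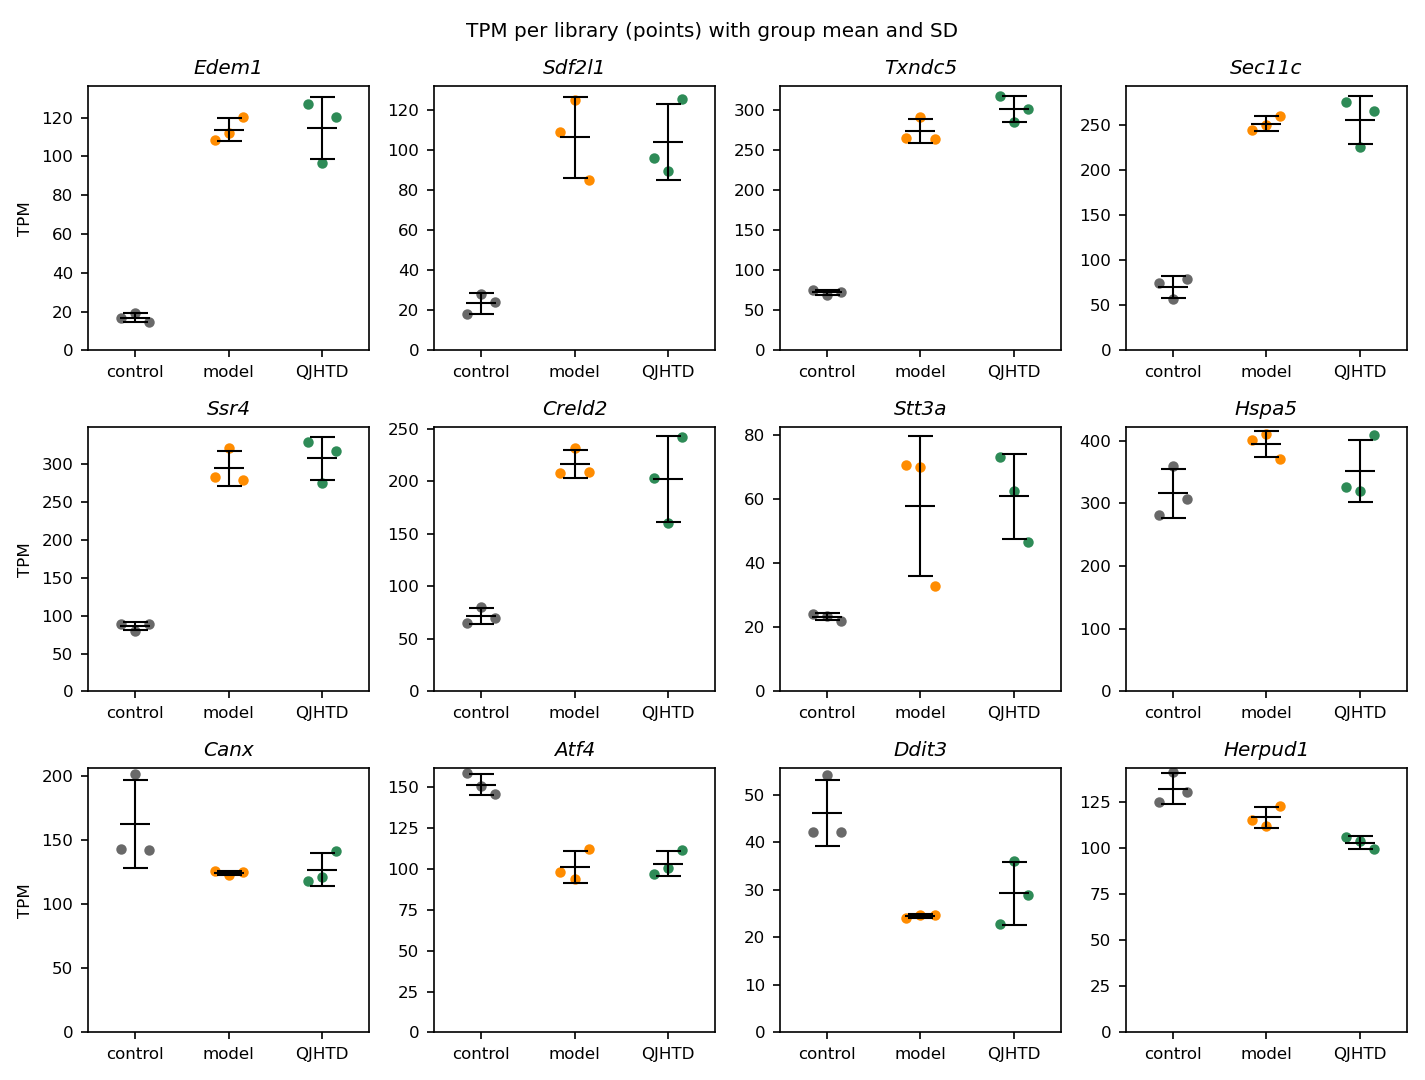
TPM in each library (points, vertical axis from 0) of 12 of the 42 genes in the control, model and QJHTD groups, with the group mean and its SD (bars). The exposed libraries lie above all controls for Edem1, Sdf2l1, Txndc5, Sec11c, Ssr4, Creld2 and Stt3a. They lie below all controls for Atf4 and Ddit3, and by a narrow gap for Herpud1 and Canx. Stt3a shows M3 and Q3 below the rest of their groups.

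TPM are shares of a library, so the sum of all genes is fixed. Antibody and T-cell receptor segments took 0.296 to 0.605% of TPM in the control, 36.2 to 42.9% in the model and 36.8 to 43.7% in the QJHTD libraries, and Scgb1a1, the club cell secretoglobin, took 21.3 to 23.8% in the control and 1.18 to 3.16% in the model libraries. The calls were therefore read under other scalings. With median-ratio rescaling 38 of the 42 genes were higher in the model group and 0 lower (limma, against 30.9% and 29.6% of all genes), and the median of all genes moved to -0.00. After mitochondrial, hemoglobin and segment genes were removed and TPM recomputed, the counts were again 38 and 0 (against 34.1% and 24.7%), with the median of all genes at 0.07. With quantile normalization 24 were higher and 4 lower (against 24.9% and 38.6%). The 4 falls thus depended on the scaling: Canx was at 0.18 and 0.28, Ssr1 at 0.33 and 0.43 and called higher, Atf4 at -0.04 and 0.06, and Ddit3 at -0.35 (adjusted p = 0.0810) and -0.25 (adjusted p = 0.165) with median-ratio and recomputed values. Edem1 was at 3.20 and 3.33. Of the 25 rises, 20 were called under all 3 scalings and 22 with each library left out in turn.

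**Figure D3:**
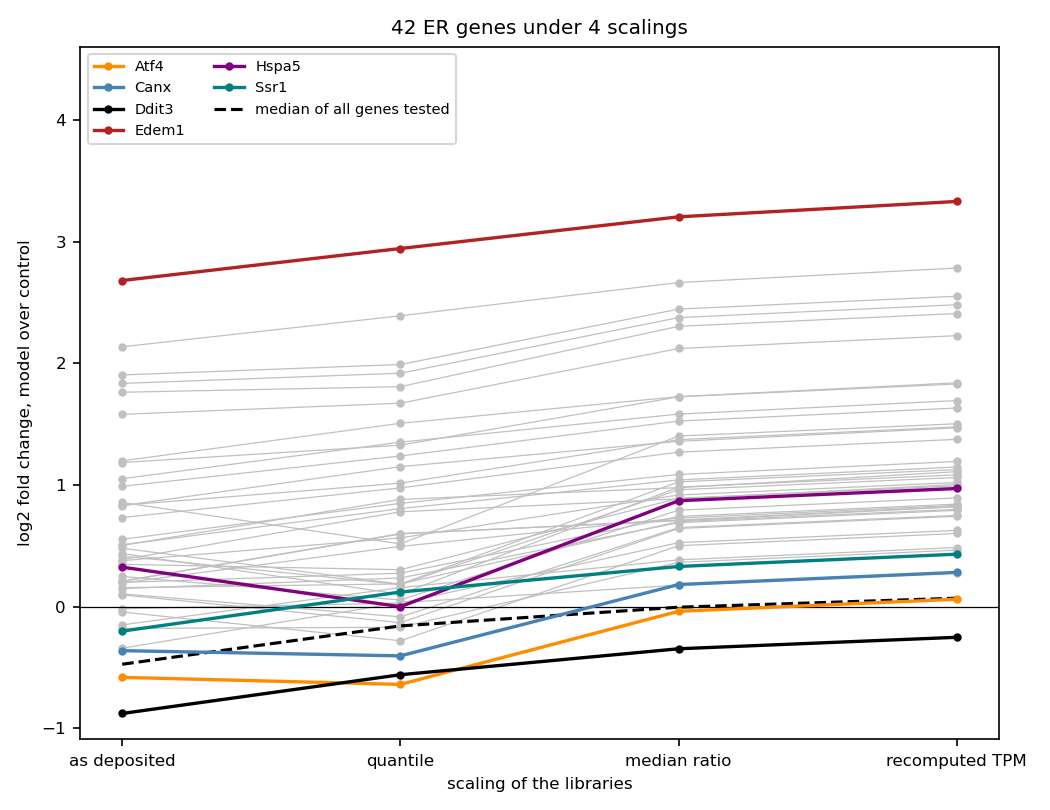
Log2 fold change of the model group over control (vertical axis) for the 42 genes (lines) under the deposited TPM and 3 other scalings of the libraries, with the median of all genes tested (dashed). Canx, Ssr1 and Atf4 lie below 0 as deposited and near or above 0 after median-ratio rescaling, while Edem1 stays the highest throughout.

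To compare the changes of the genes among themselves, with any factor that all genes of a library share set aside, each library's median over the 42 genes was subtracted from its log2 values. The change from control to model exceeded that of the panel's median level for 9 genes (Edem1, Sdf2l1, Txndc5, Sec11c, Ssr4, Creld2, Pdia4, Spcs3 and Edem2). It fell short of this shift for 22, where 8.49% and 79.0% of all genes exceeded it and fell short. This shift of the median level was larger than the median of the 42 changes, 0.38 as deposited. The median gene of the panel stood at -0.29 on this scale, with 14 genes above 0 and 28 below. The reference therefore adds to the count below it. The change of Edem1 exceeded that of the median by 2.00 ± 0.12 and the change of Sdf2l1 by 1.46 ± 0.17 (log2 difference ± SE). The changes of Ddit3, at -1.55 ± 0.18, and Atf4, at -1.26 ± 0.11, fell short of it the most, followed by Canx at -1.04 ± 0.13 and Sec61g at -1.02 ± 0.20. The calls of Ddit3, Atf4, Canx and Sec61g below the shift of the median level held under every alternative tried. So did those of 8 of the 9 genes above it. The exception was Edem2, which did not pass without C2 (adjusted p = 0.0773), C3 (0.0599) or M1 (0.0541), or without M2 and Q1 together (0.0588). Hspa5, though high in level, stood at -0.35 ± 0.11 against the shift of the median level, but did not pass without C2 (adjusted p = 0.0608). Its change of 0.33 as deposited was close to the median of the 42 changes, 0.38. Calls on this scale still moved with quantile normalization, which reshapes each library: Calr (-0.74, adjusted p = 0.000274) and Manf (-0.66, adjusted p = 0.000593) then passed below and Syvn1 (0.30, adjusted p = 0.0149) above, and Edem3 (adjusted p = 0.0776) and Eif2ak3 (0.0977) no longer passed below.

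**Figure D4:**
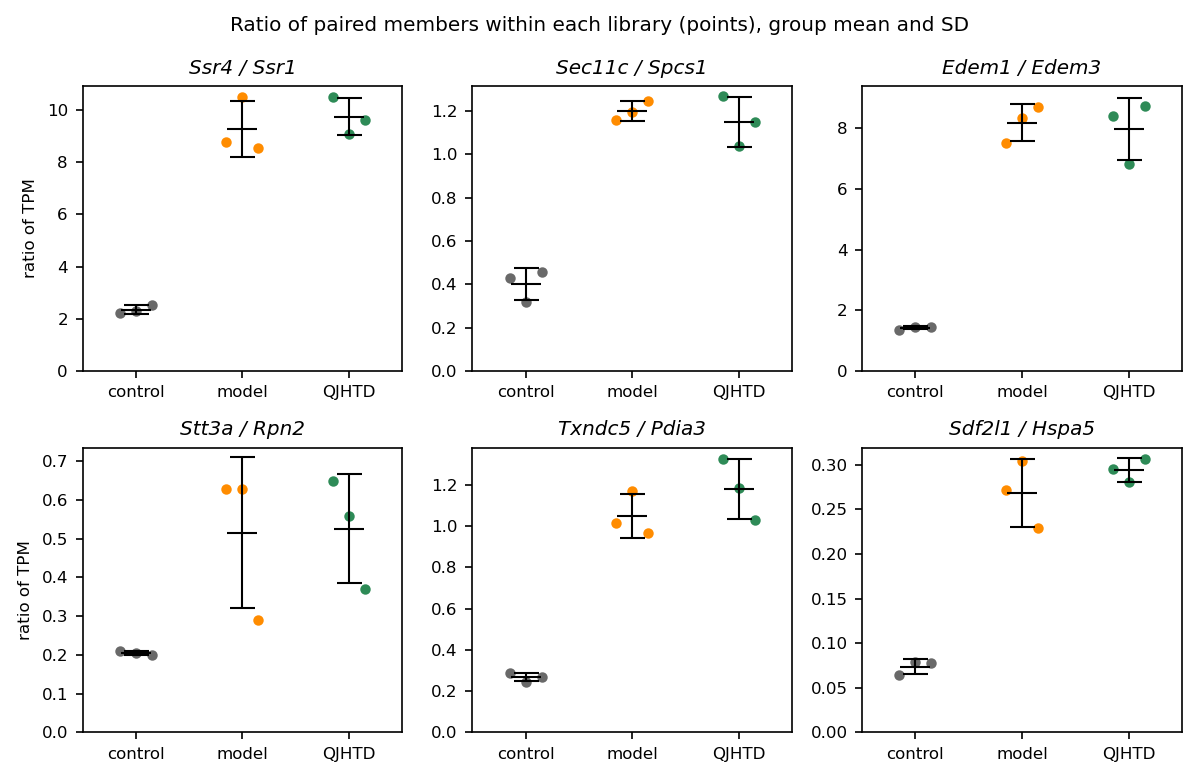
Ratio of the TPM of a pair of genes within each library (points, vertical axis from 0) in the control, model and QJHTD groups, with group mean and SD (bars). Each pair shares a complex, enzyme family or chaperone system, was chosen after the values were seen, and lies higher in every exposed library than in any control library.

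Summed over the 42 genes, the share of TPM was 0.449 ± 0.0236% in the control, 0.648 ± 0.0107% in the model and 0.645 ± 0.0705% in the QJHTD group (mean ± SD, 3 libraries each). The model and control shares did not overlap, and the exact permutation test gave a two-sided p of 0.1, the smallest that 3 against 3 libraries allow. With the same 3 kinds of gene removed from the total, the shares were 0.497 ± 0.0326%, 1.12 ± 0.0728% and 1.13 ± 0.125%, a ratio of 2.26 between model and control (exact permutation p = 0.1). QJHTD and model differed by -0.00303 percentage points as deposited (exact permutation p = 0.9).

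**Figure D5:**
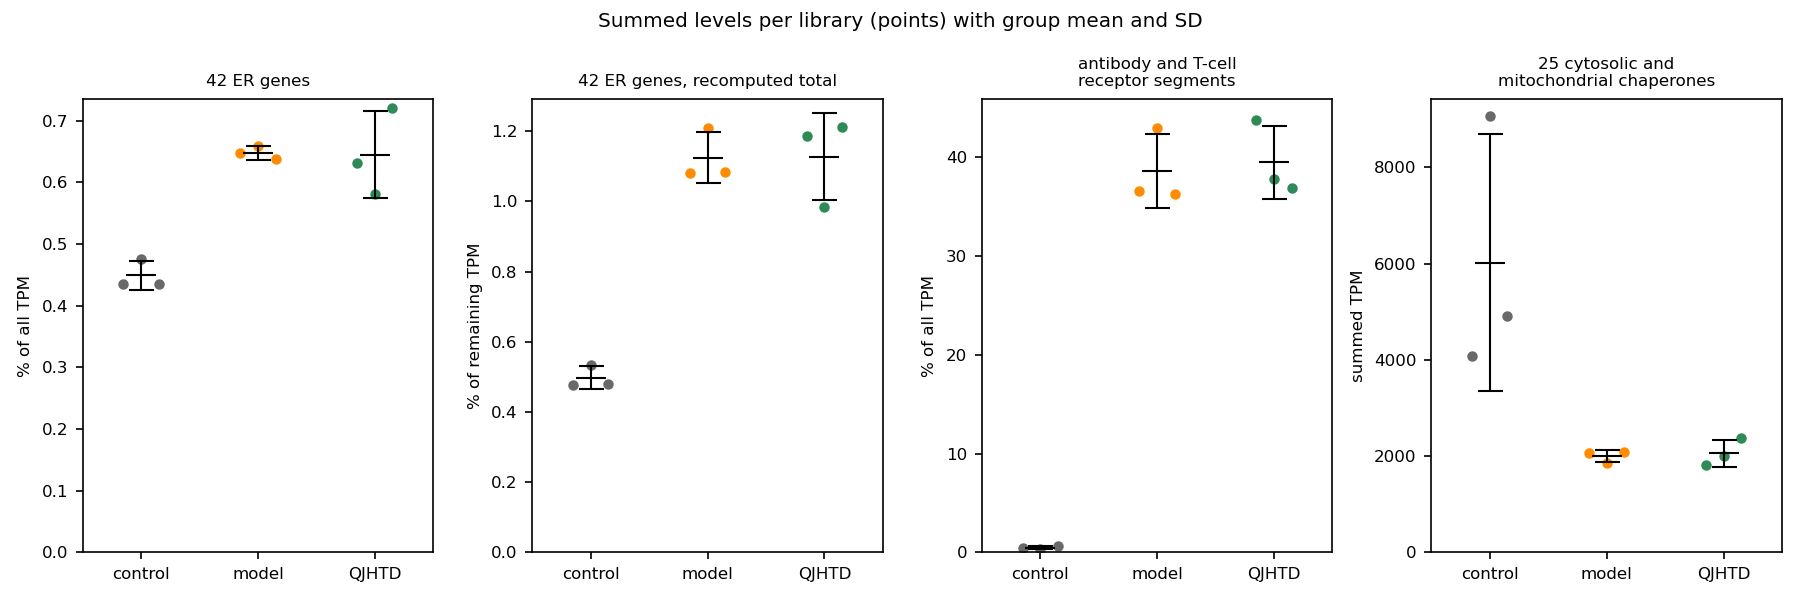
Per library (points, vertical axes from 0) the share of TPM held by the 42 ER genes as deposited and after recomputing the total, the share held by antibody and T-cell receptor segments, and the summed TPM of 25 cytosolic and mitochondrial chaperones, with group mean and SD (bars). The ER genes and the segments lie higher in all exposed libraries than in the controls, the other chaperones lie lower, and C2 has the highest sum of the other chaperones.

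No ER gene was called between the treated and untreated exposed mice. Between the QJHTD and model groups 0 of the 42 genes passed at an adjusted p under 0.05 and 0 at an unadjusted p under 0.05 (limma), where 0.0124% and 6.84% of all genes did. The intervals of all 42 differences lay within 1 log2 unit of 0, between -0.51 and 0.76, so changes under 2-fold were not all resolved. Libraries did not overlap for 3 genes: Spcs1 was higher and Dnajb9 and Herpud1 were lower in all QJHTD libraries (8.44% and 3.81% of all genes tested lay wholly above and wholly below). Of the 5 genes with the smallest p, Herpud1 differed by -0.18, 95% interval -0.36 to 0.00, adjusted p = 0.737. Dnajb9 differed by -0.18, 95% interval -0.39 to 0.03, adjusted p = 0.761. Sec61g, where Q2 and Q3 were high and Q1 was among the model values, differed by 0.33, 95% interval -0.09 to 0.75, adjusted p = 0.782. Txndc5 differed by 0.14, 95% interval -0.05 to 0.32, adjusted p = 0.788. Ddit3, whose Q2 value was above all other exposed values, differed by 0.23, 95% interval -0.14 to 0.59, adjusted p = 0.835. Edem1, the largest rise with exposure, differed by 0.00, 95% interval -0.29 to 0.29, adjusted p = 1.00.

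Set against control, which shares its libraries with the model comparison, the QJHTD group had 25 of the 42 genes higher and 5 lower (Dnajb9, Herpud1, Ssr1, Atf4 and Ddit3), where 17.0% and 53.7% of all genes were. Edem1 stood at 2.68 in this comparison and at 2.68 in the model group. Hspa5 was at 0.15 ± 0.13 (adjusted p = 0.310) and did not pass, Canx was at -0.34 ± 0.14 (adjusted p = 0.0526), and Eif2ak3 at 0.32 ± 0.10 (adjusted p = 0.0200) did pass, though not without C3 (adjusted p = 0.0674) or Q1 (0.0649), or without M2 and Q1 together (0.0732).

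Other genes of the same pathways, from lists written with earlier results of these data known, moved in both directions as deposited, where 16.6% of all genes were higher and 56.5% lower. Of 28 further ER folding and degradation genes tested, 12 were higher and 8 lower in the model group (median log2 fold change 0.01). Xbp1, the factor that Ern1 activates by splicing, stood at 130.1, 144 and 138 TPM in the control libraries, 344, 358 and 345 TPM in the model libraries and 392, 339 and 371 TPM in the QJHTD libraries. It was higher in all exposed libraries (log2 fold change 1.34 ± 0.09, adjusted p = 2.51e-06), and gene TPM do not separate its spliced form. Derl3, a degradation channel protein known from secretory cells, stood at 3.36, 4.69 and 2.58 TPM in the control libraries, 96.2, 104 and 101 TPM in the model libraries and 105, 78.4 and 118 TPM in the QJHTD libraries and exceeded every rise among the 42 (log2 fold change 4.50 ± 0.19, adjusted p = 2.67e-07). Ero1lb, an oxidase that supplies disulfides, rose (log2 fold change 0.92 ± 0.09, adjusted p = 2.61e-05), and Pdia5, another isomerase, fell (log2 fold change -1.41 ± 0.13, adjusted p = 2.13e-05), also under all 3 other scalings. Of 22 further translocation and glycosylation genes 3 were higher and 8 lower, among the latter Sec62 (log2 fold change -1.0 ± 0.09, adjusted p = 1.25e-05), Srp14 (log2 fold change -0.82 ± 0.09, adjusted p = 5.89e-05) and Tusc3 (log2 fold change -0.99 ± 0.12, adjusted p = 0.000102). With median-ratio rescaling and with recomputed TPM, counts were 21 higher and 3 lower, and 22 and 2, for the folding list, and 14 and 4, and 15 and 4, for the translocation list. Of 28 ER-to-Golgi genes 5 were higher and 7 lower as deposited, a share of higher genes near that of all genes, and 22 and 0, and 26 and 0, under these scalings, where 30.9% and 34.1% of all genes were higher and 29.6% and 24.7% lower.

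Targets of the integrated stress response, which Atf4 serves, moved in both directions. As deposited 11 of 20 were higher and 4 lower, against 16.6% and 56.5% of all genes. With median-ratio rescaling 14 were higher and 3 lower (against 30.9% and 29.6% of all genes). With recomputed TPM the counts were 15 and 3 (against 34.1% and 24.7%). Atf4 and Ddit3 themselves were lower as deposited but did not pass under these scalings. Ppp1r15a, another target of this response, was lower as deposited (log2 fold change -1.06, adjusted p = 0.000125). It was also called lower under the other scalings. Atf3 (log2 fold change 2.40 ± 0.10, adjusted p = 3.07e-07), Phgdh of serine synthesis (log2 fold change 1.70 ± 0.10, adjusted p = 1.76e-06) and the amino acid carriers Slc7a5 (log2 fold change 2.27 ± 0.18, adjusted p = 9.38e-06) and Slc7a11 (log2 fold change 2.47 ± 0.22, adjusted p = 1.79e-05) rose, also under the other scalings. Of 12 other stress transducers 1 was higher and 5 lower as deposited, but 6 and 0 with median-ratio rescaling, 7 and 0 with recomputed TPM, and 5 and 2 with quantile normalization, so that their direction depended on the scaling. The 25 chaperones of the cytosol and mitochondria stood in contrast to the ER set, since 25 were lower and 0 higher as deposited (median -1.19). Hsp90aa1, the cytosolic relative of Hsp90b1, stood at 361, 834 and 476 TPM in the control libraries, 113, 85.3 and 133 TPM in the model libraries and 84.7, 109 and 127 TPM in the QJHTD libraries. All exposed values were under the controls (log2 fold change -2.26 ± 0.30, adjusted p = 0.000162), and C2 was far above C1 and C3. Bag3, Dnaja1 and Hsph1 fell by 1.49, 2.09 and 3.00 on the log2 scale. With median-ratio rescaling 14 of the 25 were lower and 0 higher, with recomputed TPM 13 were lower and 2 higher, and without C2 24 were lower. C2 was thus high in heat shock genes, with a summed level over the 25 of 9059 TPM against 4084 and 4910 TPM in C1 and C3. It was also the highest control for most of the 42 ER genes. Among these were Hspa5, Hsp90b1, Hyou1, Calr, Canx, Ddit3, Sdf2l1, Creld2, Manf, Pdia4, Edem1, Herpud1, Atf6 and Ern1, but not Txndc5, Sec11c, Ssr4 or Atf4. Without C2, 27 of the 42 ER genes were higher in the model group and 2 lower, against 25 and 4 with all libraries.

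Markers of plasma cells, macrophages, monocytes and neutrophils were mostly higher in the model group, and those of club cells and endothelium mostly lower. Of all genes tested, 16.6% were higher and 56.5% lower as deposited, and 30.9% and 29.6% with median-ratio rescaling. With recomputed TPM the shares were 34.1% and 24.7%, and with quantile normalization 24.9% and 38.6%. Of 16 plasma cell genes 14 were higher and 1 lower in the model group, and their summed TPM ranged from 1510 to 2897 in the control, 134380 to 159920 in the model and 143180 to 169830 in the QJHTD libraries, none of the 16 failing the filter. Of 11 macrophage and monocyte genes 9 were higher and 0 lower (sums of 3717 to 5199 TPM in control, 9332 to 10738 in model and 8993 to 10294 in QJHTD). All 8 neutrophil genes were higher (161 to 363, 6629 to 13813 and 4493 to 8248 TPM), with Ly6g listed at 0 in C1. Among the secretory cells of the resting lung, 4 of 5 club cell genes were lower (222300 to 252660, 13534 to 36408 and 15734 to 24092 TPM), and of 9 alveolar type 2 genes 1 was higher and 2 lower as deposited (24961 to 38208, 15594 to 17802 and 16891 to 19361 TPM), 4 and 1 with median-ratio rescaling, 5 and 1 with recomputed TPM, and 2 and 4 with quantile normalization. Of 5 goblet cell genes tested 3 were higher and 0 lower (16.3 to 45.9, 31.4 to 90.4 and 39.8 to 69.2 TPM). All 6 endothelial genes were lower (926 to 1047, 151 to 153 and 169 to 204 TPM). The part of these cell types in the values of the ER genes was not tested. The alveolar type 2, club and endothelial markers were present in every control library, as the tissue label has it.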

How the data were processed

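RNA of mouse lung was sequenced by the authors, who trimmed the reads with fastp, quantified genes with RSEM (no version is given in the sources used here) and deposited TPM per gene and library. The build named is GRCh38.p6, a human assembly, while 55486 of 56263 identifiers are of mouse genes, and exon positions were taken from GENCODE M21. TPM hold no read counts, so the depth is unknown and only the spread between libraries shows how precise a value is. The 3 deposited columns of group means were not used.

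The filter kept genes that reached 1 TPM in 3 or more of the 9 libraries. Their log2(TPM + 1) values entered 1 limma fit of the 3 group means (version 3.58.1 in R 4.3.3), which let the spread follow the mean level (6 residual and 2.88 prior degrees of freedom). Tests were two-sided, with p-values adjusted over all 16080 genes by the Benjamini-Hochberg method. Library sums were compared between groups by exact permutation. The procedure was tested on simulated data. Promoters came from RefSeq (GRCm38.p6). Protein sequences were not used here.

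The 42 genes, their roles and all other gene lists were chosen with earlier results of these data known. Values in all libraries were printed for the 2 genes of each role with the smallest p between model and control, the 5 sensors and factors, and the 5 genes with the smallest p between QJHTD and model. Of other lists up to 4 genes were named by smallest p, plus Xbp1. Hspa5, Sec11a, Stt3b, Hsp90aa1, Ppp1r15a and the gene pairs of the ratios were chosen after their values were seen. Alternatives changed the pseudocount (to 0.1), the filter (none, or a mean of 5 TPM), the scaling (median-ratio, quantile or recomputed TPM) or the fit (only the groups compared, no trend, a replicate block), or left out each library or M2 with Q1. The scalings of the other gene lists, and those lists without C2, were added after seeing the data.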

Additional observations from a re-analysis of the deposited data

Results flagged for a closer look

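A second entry named Ddit3 (ENSMUSG00000116429, 105 bases, all shared on the same strand with exons of the main Ddit3 entry) was listed at 127.3 TPM in Q2, at 1.75 TPM in C1 and at 0 TPM in the other 7 libraries. It was used in no comparison because it failed the filter, and it was picked out because its only high value is in 1 library and no control library came near it. The main Ddit3 entry in Q2 was 36.0 TPM, against 22.9 and 29.0 TPM in Q1 and Q3. How reads were divided between the 2 entries was not tested.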

How the results depend on the processing

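Read depth is unknown, so the limits of low values could not be set from counts, and with 3 libraries a group the exact test on sums could not go below p = 0.1. For the 42 genes in the model group the counts of 25 higher and 4 lower became 38 and 0 with median-ratio rescaling and 38 and 0 with recomputed TPM. The 4 lower became 2 with only the 2 groups compared, with no intensity trend, and without M2 and Q1. Leaving out 1 library gave 23 to 27 higher and 2 to 3 lower, with 2 lower without C2, M1, M2, M3 or Q2. Against control, the QJHTD group had 37 higher and 0 lower with median-ratio rescaling and 39 and 0 with recomputed TPM, and 21 to 27 higher and 4 to 6 lower with 1 library left out. Between QJHTD and model the count over the 42 genes was 0 under every alternative. Relative to the shift of the panel's median level, 8 to 10 genes lay above it and 20 to 23 below it with 1 library left out. The share of TPM of the 42 genes exceeded control by 0.198 percentage points in the model and 0.195 in the QJHTD group, and by 0.627 and 0.630 with recomputed TPM. It ranged from 0.192 to 0.212 and from 0.157 to 0.227 with 1 library left out.

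The replicate numbers do not pair the libraries (0 of 9 same-numbered pairs had a correlation over 0.1, and 5 of 18 best matches had the same number). With a replicate block 24 of the 42 genes were higher and 2 lower in the model group, and over all genes 1 was higher between QJHTD and model.

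Over all genes, the model group had 4976 higher and 4753 lower with median-ratio rescaling and 5377 and 3902 with recomputed TPM, against 2674 and 9079 as deposited. The QJHTD group had 5031 and 4686, and 5784 and 3557, against 2741 and 8630. Between QJHTD and model, where 2 genes were higher and 0 lower, the higher count was 0 with a pseudocount of 0.1 and with a mean of at least 5 TPM, and 1 with median-ratio rescaling, quantile normalization and only the 2 groups compared. The lower count was 2 with no filter and 1 with only the 2 groups compared. With 1 library left out the counts ranged from 1 to 3 and from 0 to 2.

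Some log2 fold changes changed sign. In the model group with median-ratio and recomputed values, Canx was at 0.18 and 0.28, Pdia3 at 0.50 and 0.60, Dnajb9 at 0.39 and 0.49, Herpud1 at 0.36 and 0.46, Ssr1 at 0.33 and 0.43 (0.12 with quantile normalization) and Rpn2 at 0.53 and 0.63, and Atf4 was at 0.062 recomputed. In the QJHTD group Pdia3 was at 0.43 and 0.59, Dnajb9 at 0.16 and 0.32, Herpud1 at 0.14 and 0.30, Sec61g at 0.46 and 0.62, Ssr1 at 0.27 and 0.43 (0.093 with quantile normalization), and Atf4 at 0.10 recomputed. Median-ratio and recomputed values raise exposed against control libraries for every gene by construction. Of 798 values of single genes in the model group 712 kept direction and call, and 19 of the 25 rises kept theirs under every alternative.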
